A study of Mus musculus with 12 samples.

Results

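The clustered histone genes are the 68 genes among the 24421 in the deposited count tables whose symbol begins with Hist1h, Hist2h, Hist3h or Hist4h, taken by symbol alone. By the type in the symbol, 6 are H1 linker histones and 18 H2A, 19 H2B, 12 H3 and 13 H4 core histones. The Hist1 cluster on mouse chromosome 13 holds 54 of them, Hist2 on chromosome 3 holds 10, Hist3 on chromosome 11 holds 3, and Hist4 on chromosome 6 is the single gene Hist4h4. They were measured by RNA-seq in 12 libraries of cardiomyocytes from mouse hearts at postnatal day 1. Cells were sorted by Mitotracker, a dye of mitochondria, and the Mitotracker-high cells are the Tnnt2low population and the Mitotracker-low cells the Tnnt2high population, Tnnt2 being cardiac troponin T. There were 4 libraries each of Glut1 tg Tnnt2low and Glut1 tg Tnnt2high cells, and 2 each of WT Tnnt2low and WT Tnnt2high cells.

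Glut1 tg hearts carry human GLUT1, a glucose transporter, under the αMHC promoter, which is active in cardiomyocytes. The mice were on a CD1 background, and the study's methods give both genotypes an αMHC-Cre driver and a Rosa26 YFP reporter of the cardiomyocyte lineage, while the labels give the controls only as wild type. Each Glut1 tg number was 1 heart that gave both populations. Both WT numbers begin with heart number 9, so the 2 WT libraries of a population may come from 1 heart, and p-values then measure only the spread between libraries. Reads counted on genes numbered 4065306 to 9815069 per library. Tnnt2 averaged 13420.3 ± 632 CPM (read counts scaled to a common library size) in Glut1 tg Tnnt2low and 17956 ± 2275 CPM in Glut1 tg Tnnt2high libraries (SD, n = 4 each), against 16236 ± 699.5 CPM in WT Tnnt2low and 16728 ± 669.6 CPM in WT Tnnt2high libraries (SD, n = 2 each). Slc2a1, the mouse Glut1 gene, averaged 73.1 ± 20.1 and 63.4 ± 25.5 CPM in Glut1 tg Tnnt2low and Tnnt2high libraries (SD, n = 4 each), against 21.8 ± 8.37 and 21.1 ± 11 CPM in the WT populations (SD, n = 2 each). The groups did not overlap, but the Slc2a1 differences between genotypes did not pass the test across genes.

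The core histones H2A, H2B, H3 and H4 wrap DNA into nucleosomes, and H1 binds the DNA that enters and leaves them. Most clustered genes are replication-dependent: their transcription, organised by NPAT, rises in S phase, and their mRNAs end in a conserved stem-loop bound by SLBP rather than in a poly(A) tail. Newborn mouse cardiomyocytes still replicate DNA in the first days of life, and some clustered genes can also make polyadenylated mRNA in cells that have stopped dividing. The libraries were made with an mRNA kit of the kind that captures poly(A), so a level here is that of the histone mRNA such a library holds. In bulk samples, fewer cells with a transcript and less of it per cell cannot be told apart.

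The 3′ stem-loop is shown because it marks the class and because members differ in how far their annotated transcript runs past it. A form of it was found in the annotated transcripts of 46 of the 68 genes, and 26 of these had the same 16 bases. In the lines below the stem-loop is in capitals with 5 flanking bases on each side.
Hist1h1c: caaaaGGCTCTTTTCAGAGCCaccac
Hist3h2a: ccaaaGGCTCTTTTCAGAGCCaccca
Hist1h2bj: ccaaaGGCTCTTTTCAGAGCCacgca
Hist1h3e: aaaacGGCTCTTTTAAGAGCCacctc
Hist1h4h: ccaaaGGCCCTTTTCAGGGCCgccca
Hist4h4: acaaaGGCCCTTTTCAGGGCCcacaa
The forms with GGCCC and GGTCC in the stem occurred in H4 genes only, and the forms with GGCTC in H1, H2A, H2B and H3 genes. The annotation ran 23 bases past the stem-loop in Hist1h2bj and 46 in Hist1h4h, but 369 in Hist1h3e, 840 in Hist1h1c, 1643 in Hist3h2a and 2445 in Hist4h4. Of the 46 genes, 23 had at least 100 annotated bases past it.

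Promoters of members were compared by 4 sequence elements known from histone genes, searched on both strands in the 250 bases before and 50 after the start in RefSeq (GRCm38.p6), where 61 of 68 members matched. CCAAT was present in 85.2% of them, against 37.4% of all 32851 promoters, and TATAAA in 57.4%, against 13.6%. The octamer ATTTGCAT, a known site of POU factors in H2B promoters, was in 7 of 17 H2A and 6 of 16 H2B promoters and in none of the H1, H3 or H4 promoters, against 1.74% of all promoters. The H1 box AAACACA was in 5 of 6 H1 promoters, against 7.18% of all. CCAAT was in all H1, H2A, H2B and H3 promoters matched, but in 3 of 12 H4 promoters. Neighbouring H2A and H2B genes often lie head to head, so that their windows overlap and are not independent. Below are 3 promoters of genes that stood high in a few libraries, with matches on either strand in capitals. A CCAAT on the minus strand reads ATTGG, and an octamer there ATGCAAAT.
Hist1h2bg, chr13:23571150-23571449, plus strand: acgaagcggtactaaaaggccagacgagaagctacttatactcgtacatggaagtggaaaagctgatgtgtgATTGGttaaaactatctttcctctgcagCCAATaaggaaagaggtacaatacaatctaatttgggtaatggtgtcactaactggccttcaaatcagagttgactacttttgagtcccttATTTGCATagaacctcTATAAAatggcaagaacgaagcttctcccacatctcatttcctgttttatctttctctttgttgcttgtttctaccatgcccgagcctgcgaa
Hist1h2ac, chr13:23683910-23684209, minus strand: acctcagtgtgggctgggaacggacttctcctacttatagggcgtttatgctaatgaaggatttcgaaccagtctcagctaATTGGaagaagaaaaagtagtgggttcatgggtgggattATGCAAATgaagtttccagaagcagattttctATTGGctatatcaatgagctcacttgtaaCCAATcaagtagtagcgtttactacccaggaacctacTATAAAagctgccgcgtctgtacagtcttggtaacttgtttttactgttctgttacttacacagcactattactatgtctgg
Hist1h2bj, chr13:22042948-22043247, plus strand: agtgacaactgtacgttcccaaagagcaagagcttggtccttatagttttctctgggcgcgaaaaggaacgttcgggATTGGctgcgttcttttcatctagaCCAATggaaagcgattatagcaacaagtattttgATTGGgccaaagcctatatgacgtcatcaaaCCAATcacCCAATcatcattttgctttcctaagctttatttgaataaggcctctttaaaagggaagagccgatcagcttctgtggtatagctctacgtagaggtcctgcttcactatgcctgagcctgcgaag
The first window overlaps that of Hist1h2ae, which starts on the other strand, and the second covers the 250 bases between Hist1h2ac and Hist1h2bc. The third holds CCAAT on both strands but neither TATAAA nor the octamer.

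Many members are near-identical copies, and a read that aligned to several places was not counted on any gene. Among the 50-base words of each gene, the length of the reads, the share also found in another annotated gene (GENCODE vM21, mm10) had a median of 46.4% over the 68 members and reached 100% in Hist2h2aa2. It was lowest in H1 genes, at most 8.54%, with a median of 1.13%. H2A genes had a median of 73%, H3 genes 57.2%, H2B genes 43.8% and H4 genes 39.5%. The word below, from the coding part of H2A genes on chromosomes 13 and 3, is in 22 annotated genes, 16 of them members, and a read from it cannot be given to any single one.
H2A word: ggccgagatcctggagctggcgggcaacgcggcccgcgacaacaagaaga

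Of the 68 members, 9 had 0 reads in all 12 libraries: Hist1h2ao, Hist1h2ap, Hist2h2aa1, Hist2h2aa2, Hist1h2bq, Hist1h2br, Hist2h3c1, Hist2h3c2 and Hist1h4m. No H1 gene was among them. Their shared share ran from 34.7% in Hist2h3c1 and 63.5% in Hist2h3c2 to between 88.7% and 100% in the other 7. On each of those 7, a count of 0 says that no read was placed on the gene alone, not that it was silent. Hist2h3c1 and Hist2h3c2 also had words not found in another annotated gene, and whether they were silent was not tested. Another 11 members had reads in some libraries only, and 48 had reads in every library.

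**Figure D1:**
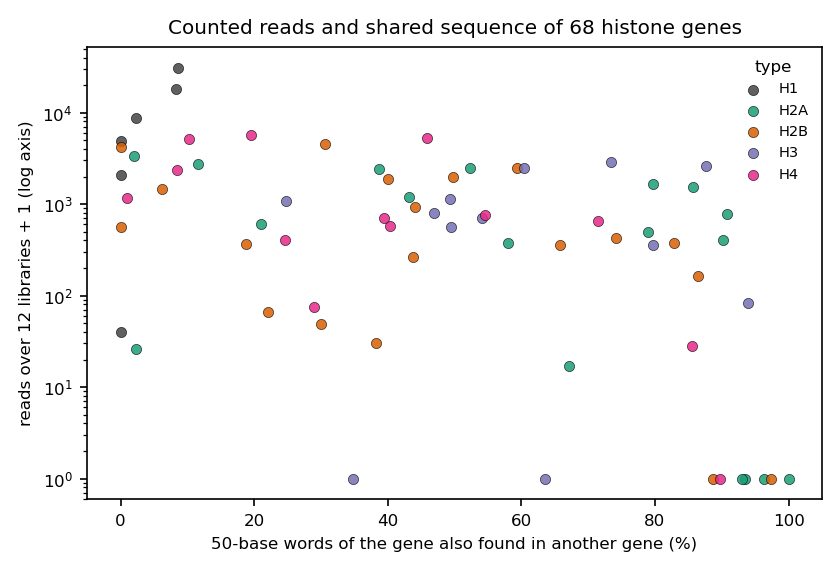
Reads counted on each of the 68 histone genes over the 12 libraries, plus 1, on a log axis, against the percentage of its 50-base words found in another annotated gene. Points are genes, coloured by type, and the 9 genes without a read lie on the bottom line, 7 of them at 88.7% or more.

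Of the 59 members with reads, 53 passed the filter on low counts and were tested, and the other 6 had 16 to 48 reads over all libraries. Those 6 were Hist1h1t, Hist1h2aa, Hist1h2ad, Hist1h2ba, Hist1h4n and the pseudogene Hist3h2bb-ps. Hist1h1t, Hist1h2aa and Hist1h2ba are known as testis histones. The tested members were 5 H1, 12 H2A, 15 H2B, 10 H3 and 11 H4 genes, and 20 of the 53 shared over 50% of their words, so that their counts cover only part of each transcript.

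The levels of the tested members, in CPM per kb of annotated exon, spanned 1.44 to 268, with a median of 17.8. On this scale Hist1h1c, a replication-dependent H1 that is also made outside S phase, was highest at 268, followed by Hist1h4h at 157, Hist2h2bb at 149 and Hist1h1e at 125. These per-kb levels move with the annotated length, which for Hist1h1d is 7425 bases, and with the part of a gene that can be counted. By reads, H1 genes took a median of 46.4% of all histone CPM per library, between 32.8% and 59.3%, and Hist1h1c alone 22.5%, between 13% and 28.7%. By this sum over members, H1 was the leading type in each of the 12 libraries, but reads of other types that fit several copies are missing from it.

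The first comparison asks how Tnnt2low cells differed from Tnnt2high cells of the same Glut1 tg hearts. Summed over all members, without a correction for transcript length and GC content, histone reads were lower in Tnnt2low cells in each of the 4 hearts. The sum was 1727, 2219.6, 1429 and 758 CPM in Glut1 tg Tnnt2low replicates 1 to 4, against 2629, 3047, 2677 and 989 CPM in the Tnnt2high library of the same heart. The log2 ratio averaged -0.59 ± 0.23 (SD, n = 4 hearts). Replicate 4 was lowest in both populations, and its Tnnt2high library lay below 3 of the 4 Tnnt2low libraries, so the groups overlapped while every pair kept its order.

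By type, the sum was lower in Tnnt2low cells in all 4 hearts for H1, H2A and H2B, and in 3 of 4 for H3 and H4. H1 averaged 681 ± 337 CPM in Glut1 tg Tnnt2low and 1141 ± 568 CPM in Glut1 tg Tnnt2high libraries, and H2A 221 ± 85.6 against 272 ± 101 CPM (SD, n = 4 each). For H2B the means were 219 ± 88.7 and 281 ± 129 CPM, for H3 141 ± 79 and 254 ± 147 CPM, and for H4 272 ± 119 and 388 ± 165 CPM in Glut1 tg Tnnt2low and Tnnt2high libraries (SD, n = 4 each). The mean log2 ratio within hearts was -0.71 ± 0.32 for H1, -0.31 ± 0.2 for H2A, -0.33 ± 0.12 for H2B, -0.78 ± 1.07 for H3 and -0.53 ± 0.56 for H4. H3 ran the other way in replicate 1 and H4 in replicate 2. Scaled by total reads in place of TMM, H2A was lower in 3 of 4 hearts with a mean of -0.17, and the H2B mean was -0.19. Without the members described below as high in a few libraries, the H2B mean was 0.0199, with 2 of 4 hearts lower, and the H3 and H4 means were -0.46 and -0.83, each with 4 of 4 lower. H1 was lower in 4 of 4 hearts in each of these. These sums were not tested. The offset for transcript length and GC content, given below with the fits by gene, was not applied to them.

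**Figure D2:**
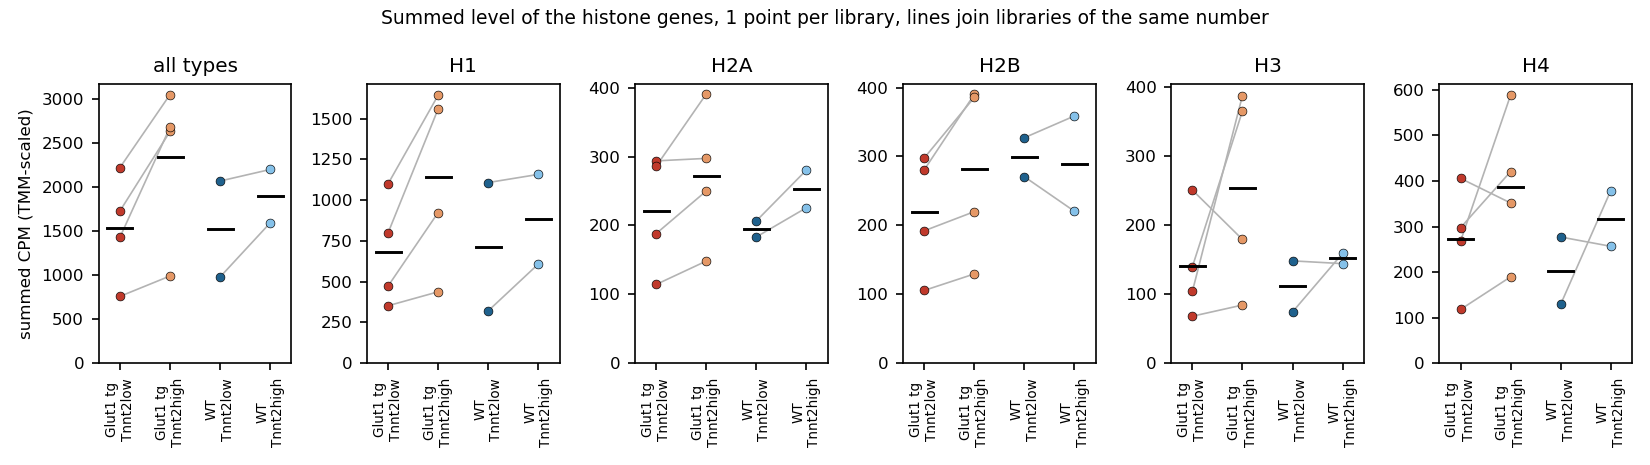
Summed TMM-scaled CPM of all members and of each histone type, 1 point per library, with a bar at the group mean and grey lines joining libraries of the same number. Summed over all types, the Tnnt2low point lies below its partner in all 4 Glut1 tg hearts and in both WT pairs. The sums are without an offset for transcript length and GC content.

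Gene by gene, 5 of the 53 tested members fell in Glut1 tg Tnnt2low against Glut1 tg Tnnt2high cells and none rose (edgeR quasi-likelihood test, adjusted p under 0.05 over 12252 genes). That is 9.43% of members, beside 8.33% of all tested genes that fell and 8.42% that rose, so the share that fell was near the background. The fitted change was below 0 in 48 of the 53, with a median log2 fold change of -0.58, beside -0.01 over all genes, but after an offset for transcript length and GC content it was below 0 in 23 of 53, with a median of 0.14, and no member was called. Calls over all genes also fell in number with the offset, to 440 lower and 250 higher of 12252. At an unadjusted p under 0.05 there were 13 members, beside 31% of all genes. The groups did not overlap in 3 members, all lower, beside 10.9% of all genes that were lower without overlap and 11.2% that were higher. The tested members have a median length of 539 bases and all tested genes one of 4586. By type, the fitted change without the offset was below 0 in 5 of 5 H1, 11 of 12 H2A, 14 of 15 H2B, 9 of 10 H3 and 9 of 11 H4 genes. Calls fell on 2 H2A, 1 H3 and 2 H4 genes, and on no H1 or H2B gene.

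With the heart as a block, 8 members fell and none rose, beside 1133 of all 12252 genes that fell and 1204 that rose in that fit. The 3 added were Hist1h1c (log2 fold change -0.74, SE 0.14, adjusted p 0.00546), Hist1h1d (-0.89, SE 0.21, adjusted p 0.0139) and the H4 gene Hist2h4 (-0.77, SE 0.22, adjusted p 0.031), all by edgeR. Without the block the adjusted p was 0.261 for Hist1h1c and 0.101 for Hist1h1d. The block fit had no offset for length and GC content, and block and offset were not combined. Leaving out Glut1 tg Tnnt2high replicate 4 raised the count of called members to 11, beside 1008 lower and 1017 higher of 12247 genes.

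Hist1h4h, a replication-dependent H4 gene (chr13:23531050-23531519, plus strand), had 52.3, 63.2, 40.6 and 27.9 CPM in Glut1 tg Tnnt2low replicates 1 to 4, against 124, 109.5, 123 and 66 CPM in the Tnnt2high replicates. Every Tnnt2low library lay below every Tnnt2high library. The log2 fold change was -1.2 (SE 0.26, adjusted p 0.00728, edgeR), and it was -0.39 with an adjusted p of 0.338 after the length and GC offset. In WT it had 42 and 74.5 CPM in Tnnt2low, against 87.4 and 76.3 CPM in Tnnt2high libraries, a log2 fold change of -0.49 that did not pass the test.

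Hist3h2a is an H2A gene of the small Hist3 cluster (chr11:58954685-58956830, plus strand) whose span overlaps Trim17. It had 26.7, 32.6, 33.4 and 41.6 CPM in Glut1 tg Tnnt2low, against 59.5, 73.7, 73.2 and 52 CPM in Glut1 tg Tnnt2high replicates 1 to 4. The groups did not overlap, and the log2 fold change was -0.95 (SE 0.18, adjusted p 0.00461, edgeR), the smallest p of any member in this comparison. With the length and GC offset it was -0.59, with an adjusted p of 0.056. WT Tnnt2low libraries had 32 and 43.2 CPM, against 59.7 and 41.9 CPM in WT Tnnt2high. Its shared share of words is 2%, so its counts owe little to copies.

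Hist4h4, the H4 gene that stands alone on chromosome 6 (chr6:136801553-136804415, minus strand), had 24, 22, 22.5 and 15.6 CPM in Glut1 tg Tnnt2low, against 55.9, 40.3, 61 and 23.5 CPM in Glut1 tg Tnnt2high libraries. Tnnt2high replicate 4 came down into the range of the Tnnt2low libraries. The log2 fold change was -1.1 (SE 0.28, adjusted p 0.0155, edgeR), and it was -0.84 (adjusted p 0.0772) after the offset and -0.98 (adjusted p 0.0523) without Glut1 tg Tnnt2high replicate 1. WT libraries had 20.7 and 35.4 CPM in Tnnt2low and 48.7 and 31.4 CPM in Tnnt2high. Like Hist3h2a, its annotation runs far past the stem-loop.

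Hist1h2ae and Hist1h3e were called on the strength of 1 library. Hist1h2ae, an H2A gene (chr13:23570517-23571220), had 0.191, 0.898, 0.254 and 0 CPM in Glut1 tg Tnnt2low, against 2.42, 1.64, 97.7 and 2.61 CPM in Glut1 tg Tnnt2high libraries. The groups did not overlap, but 3 Tnnt2high libraries were under 3 CPM. Its log2 fold change of -6.17 (SE 1.57, adjusted p 0.0158, edgeR) became -2.65 with an adjusted p of 0.154 without Glut1 tg Tnnt2high replicate 3. Hist1h3e, an H3 gene (chr13:23561534-23562369), had 30.9, 30.4, 16.1 and 8.95 CPM in Glut1 tg Tnnt2low, against 44.6, 40.8, 216 and 22.3 CPM in Glut1 tg Tnnt2high libraries. Its log2 fold change of -1.9 (SE 0.59, adjusted p 0.0387, edgeR) became -0.73, with an adjusted p of 0.238, without that library. The robust fit called neither.

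Annotation past the stem-loop was set beside the change, as a description. The median log2 fold change was -0.89 over the 20 tested members with at least 100 annotated bases past it, of which 4 were called, and -0.42 over the 16 with fewer, of which 1 was called. Over the 17 tested members with no stem-loop in the annotated transcript it was -0.42, with none called. These calls stand beside 8.33% of all tested genes that fell. Those of Hist1h2ae and Hist1h3e, both in the first set, rest on 1 library. Medians and calls here are without the length and GC offset, under which no member was called. Annotated length differs between these sets too, and its part in these medians was not tested.

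**Figure D3:**
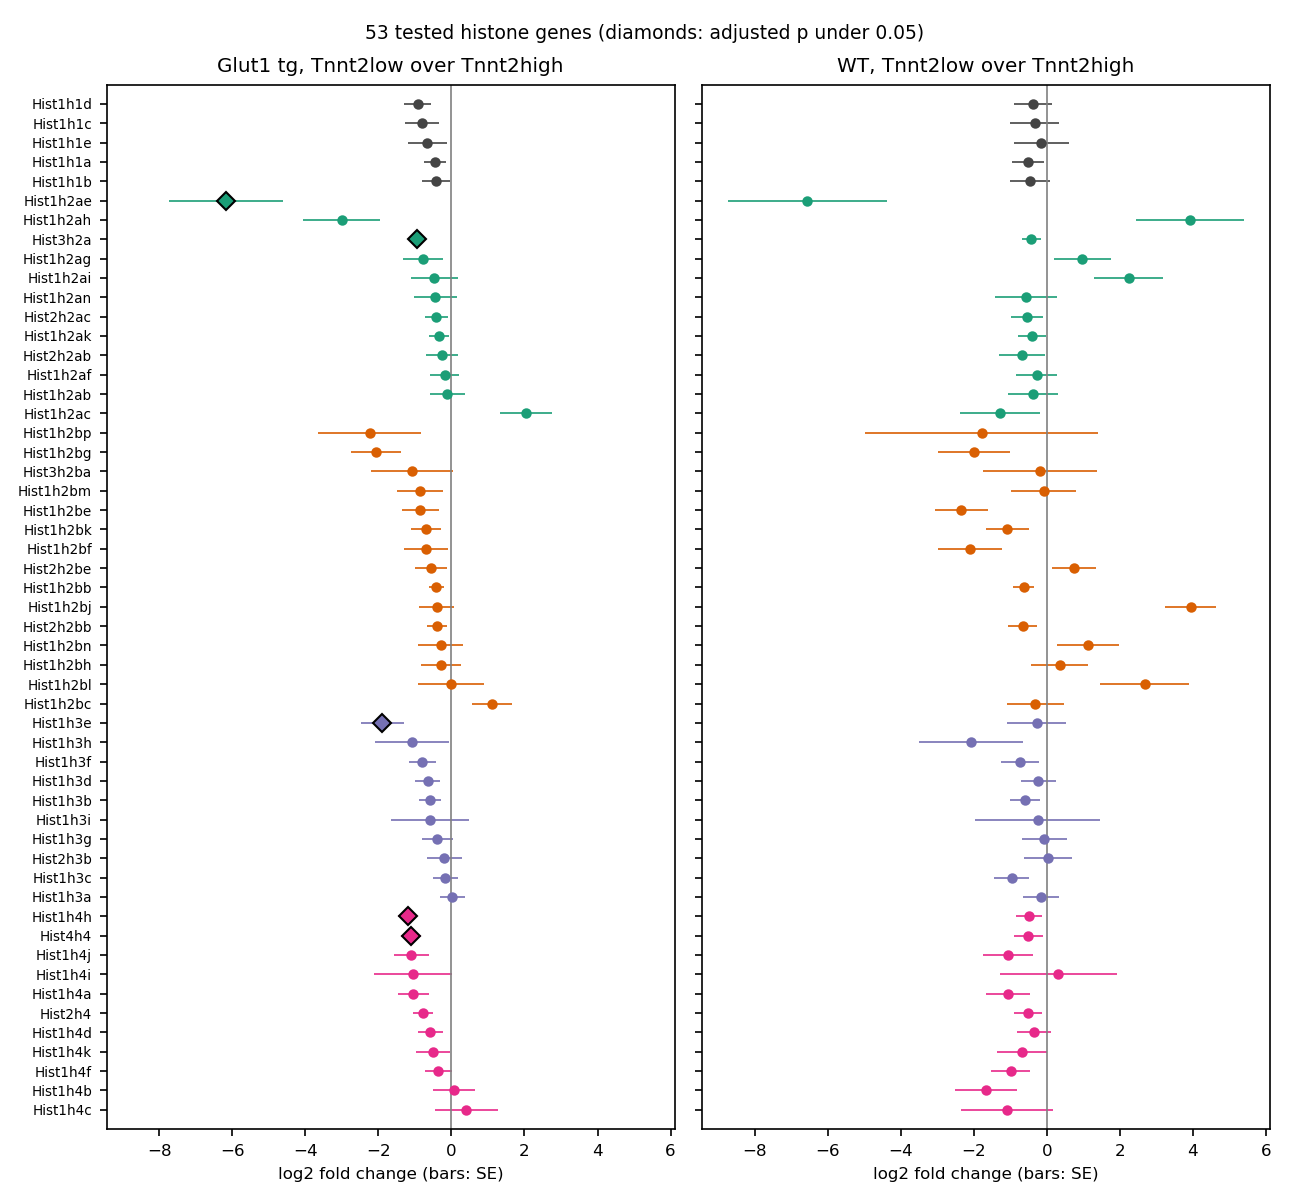
Log2 fold change of Tnnt2low over Tnnt2high for the 53 tested members in Glut1 tg (left) and WT (right) cells, with bars of 1 SE, ordered by type and coloured as in the plot of shared sequence. The 5 diamonds, Hist1h2ae, Hist3h2a, Hist1h3e, Hist1h4h and Hist4h4, passed the adjusted threshold, and no WT point did.

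In WT hearts, no member passed the test between Tnnt2low and Tnnt2high cells with edgeR, as no gene did (0% of 12252). DESeq2 called 1 member, Hist1h2bj, beside 1 gene higher and 2 lower of 16895 in all. At an unadjusted p under 0.05 edgeR had 8 members, 4 of them higher and 4 lower in Tnnt2low cells, beside 3.11% of all genes. The fitted change was below 0 in 43 of 53 members, with a median log2 fold change of -0.46, and -0.17 after the length and GC offset. The median depended on the library left out: it was -0.16 when WT Tnnt2low replicate 1 was dropped and -1.03 when replicate 2 of that group was. The groups did not overlap in 17 members that were lower and 5 that were higher, beside 14.9% and 15.3% of all genes. The summed level was 978 and 2067 CPM in WT Tnnt2low, against 1592 and 2198 CPM in WT Tnnt2high libraries. Without the offset, this sum was lower in both pairs, with a mean log2 ratio of -0.4 ± 0.43 (SD, n = 2). H1 and H2A were lower in both pairs, and H2B, H3 and H4 in 1 of 2. The H2B mean of 0.08 changed sign to -0.88 over members sharing at most 50% of their words and to -0.43 without the members high in a few libraries, and the H2A mean of -0.37 was -1.12 over members sharing at most 50%.

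The change between populations was also compared between genotypes. No member passed the interaction test with DESeq2 or with edgeR after the filter on low counts and with all libraries. Of all genes, 0 of 12252 passed with edgeR, and 2 higher and 3 lower of 16895 with DESeq2. At an unadjusted p under 0.05 edgeR had 4 members, beside 4.52% of all genes. Without the filter edgeR called Hist1h2ah and Hist1h2bj, beside 9 lower and 0 higher of 16911 genes in all, and without Glut1 tg Tnnt2high replicate 4 Hist1h2bj alone. The 5 genes that fell in Glut1 tg had interaction log2 values of -0.71 for Hist1h4h, -0.52 for Hist3h2a, -0.6 for Hist4h4, 0.39 for Hist1h2ae and -1.62 for Hist1h3e, none called. A difference between the genotypes in these changes was not shown. Across both genotypes, 14 of 53 members (26.4%) were lower in Tnnt2low cells in all 6 pairs of libraries, without the offset, beside 8.04% of all tested genes. Those 14 were Hist1h1b, Hist1h1c, Hist1h1d, Hist1h2ae, Hist1h2bb, Hist1h2bf, Hist1h2bg, Hist1h2bk, Hist1h3b, Hist1h3f, Hist1h4a, Hist1h4d, Hist1h4h and Hist2h4. Of these, Hist1h2ae, Hist1h2bf and Hist1h2bg are among the members described below as high in a few libraries.

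The next comparison asks how Glut1 tg and WT cells of 1 population differed. In Tnnt2low cells, 1 member fell in Glut1 tg and none rose, and it was the only gene called of 12252 (0.00816%). Hist1h2bj, an H2B gene (chr13:22043214-22043676, plus strand) next to Hist1h2ag, had 14.6, 11.2, 6.85 and 6.27 CPM in Glut1 tg Tnnt2low libraries, against 146 and 121 CPM in WT Tnnt2low libraries. The log2 fold change was -3.76 (SE 0.52, adjusted p 0.0365, edgeR). Glut1 tg Tnnt2high libraries had 7.67, 24.6, 17.9 and 2.61 CPM and WT Tnnt2high libraries 5.91 and 11.2 CPM, so the 2 WT Tnnt2low libraries stood above the other 10. The call was lost in the robust fit and on leaving out any of 7 libraries, among them each WT Tnnt2low library, with log2 fold changes of -4.03 to -3.6 over all 12 libraries left out in turn.

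Within WT, Hist1h2bj was 3.94 higher on the log2 scale in Tnnt2low cells (SE 0.69, adjusted p 0.532, edgeR). It passed with the pairing as a block (log2 fold change 3.97, SE 0.55, adjusted p 0.0461). The interaction was -4.35 (SE 0.82, adjusted p 0.698). Hist1h2bj shares 59.4% of its words, most with Hist1h2bq, which had no reads. If both WT libraries come from 1 heart, their agreement is that of 1 animal.

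With the filter on low counts no other member was called between the genotypes, and without it Hist1h2ac and Hist1h2ah were also called in Tnnt2low cells, beside 5 genes higher and 5 lower of 16911 in all. In Tnnt2low cells 5 members had an unadjusted p under 0.05, beside 2.09% of all genes, and the groups did not overlap in 5 that were lower and 1 that was higher in Glut1 tg, beside 6.02% and 5.39% of all genes. The fitted change was below 0 in 25 of 53 in Glut1 tg, with a median log2 fold change of 0.03, and this median ran from -0.28 to 0.63 on leaving out WT Tnnt2low replicate 1 or 2. In Tnnt2high cells no member was called with edgeR, as no gene was (0 of 12252). DESeq2 called no member either, beside 4 genes higher and 1 lower of 16895 in all. At an unadjusted p under 0.05 edgeR had 1 member, Hist1h2be, beside 5.31% of all genes. The groups did not overlap in 1 member, higher in Glut1 tg, beside 5.9% of all genes. There 35 of 53 were above 0, with a median of 0.24, which was 0.04 after the length and GC offset. It was 0.09 without Glut1 tg Tnnt2high replicate 3, 0.11 without replicate 2 and 0.44 without replicate 4 of that group. The summed level averaged 1533 ± 611 CPM in Glut1 tg Tnnt2low and 2336 ± 917 CPM in Glut1 tg Tnnt2high libraries (SD, n = 4 each). It averaged 1523 ± 769.5 CPM in WT Tnnt2low and 1895 ± 428 CPM in WT Tnnt2high libraries (SD, n = 2 each).

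**Figure D4:**
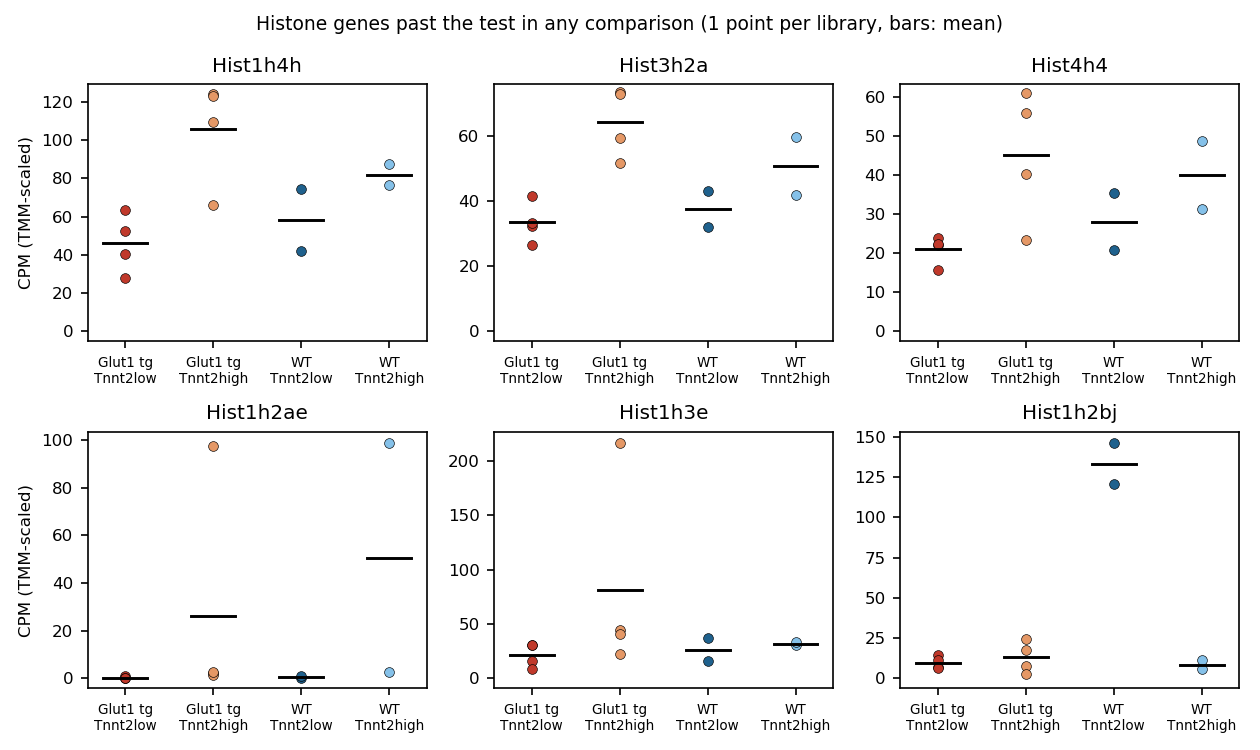
TMM-scaled CPM of the 6 members called in any comparison, 1 point per library, with a bar at the group mean and separate scales. Hist1h4h and Hist3h2a separate Glut1 tg Tnnt2low from Glut1 tg Tnnt2high libraries, Hist1h2ae and Hist1h3e rest on 1 or 2 high libraries, and Hist1h2bj is high in the 2 WT Tnnt2low libraries alone.

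Single libraries stood far above the rest in some members. A member was described as high in a library where it reached 5 times its median over the 12 libraries and at least 10 CPM. By this measure 12 of 53 tested members (22.6%) were high in 1 or 2 libraries, beside 1.27% of all tested genes. They were 3 of 12 H2A, 6 of 15 H2B, 2 of 10 H3 and 1 of 11 H4 genes, and no H1 gene. Of the 19 cases, none recurred at this cut in the other population of the same heart. Some partners stood above the median but under the cut, while others lay below the median. Hist1h4c had 215 CPM in Glut1 tg Tnnt2high replicate 3 and 108.5 CPM in Tnnt2low cells of that heart, with a median of 41.3 CPM. Hist1h2ac had 137 CPM in Glut1 tg Tnnt2low replicate 3 and 31 CPM in its partner, with a median of 10.8 CPM. They lay in 8 of the 12 libraries, with 4 each in Glut1 tg Tnnt2high replicate 3 and WT Tnnt2high replicate 2.

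High members were often neighbours. Hist1h2ae and Hist1h2bg, which lie head to head 175 bases apart, were both high in Glut1 tg Tnnt2high replicate 3, at 97.7 and 128 CPM, and in WT Tnnt2high replicate 2, at 98.6 and 78.4 CPM. Their medians over all libraries were 1.34 and 14.5 CPM. In WT Tnnt2high replicate 2, Hist1h2be on the same stretch of chromosome 13 reached 100.4 CPM, against 10.8 CPM in replicate 1. In 9 of the 19 cases, another high member of the same library lay within 5000 bases. Adjacent members often lie under 5000 bases apart whether high or not, and the share that this layout alone would give was not computed.

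Further along chromosome 13, Hist1h3i and Hist1h2bp, 4090 bases apart with Hist1h2an between them, were high together in 2 libraries. Hist1h2bp had 30.1 CPM in Glut1 tg Tnnt2low replicate 1 and 153 CPM in Glut1 tg Tnnt2high replicate 2, and at most 2.24 CPM in the other 10 libraries. Hist1h3i had 131 and 202 CPM in the same 2 libraries and at most 18.1 CPM elsewhere. Hist1h3i shares 87.6% of its words and Hist1h2bp 44.1%.

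Hist1h2ac, which shares 11.6% of its words, had 23.6, 102, 137 and 4.73 CPM in Glut1 tg Tnnt2low, against 15.3, 10.4, 31 and 8.3 CPM in Glut1 tg Tnnt2high libraries. Its head-to-head partner Hist1h2bc, an H2B gene, had 30.5, 133, 176 and 13.9 CPM, against 49.6, 43, 38.4 and 33.7 CPM. Both were highest in Tnnt2low replicates 2 and 3 and lowest among the 8 Glut1 tg libraries in Tnnt2low replicate 4. In WT, Hist1h2ac had 2.08 and 6.73 CPM in Tnnt2low and 11 and 10.5 CPM in Tnnt2high libraries. They were among the 5 members with a fitted change above 0 in Glut1 tg Tnnt2low cells, at log2 fold changes of 2.04 (SE 0.72, adjusted p 0.0655, edgeR) and 1.1 (SE 0.55, adjusted p 0.189, edgeR). Hist1h4c, an H4 gene between them and Hist1h1c, ran from 4.6 to 215 CPM over the Glut1 tg libraries without following the population.

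**Figure D5:**
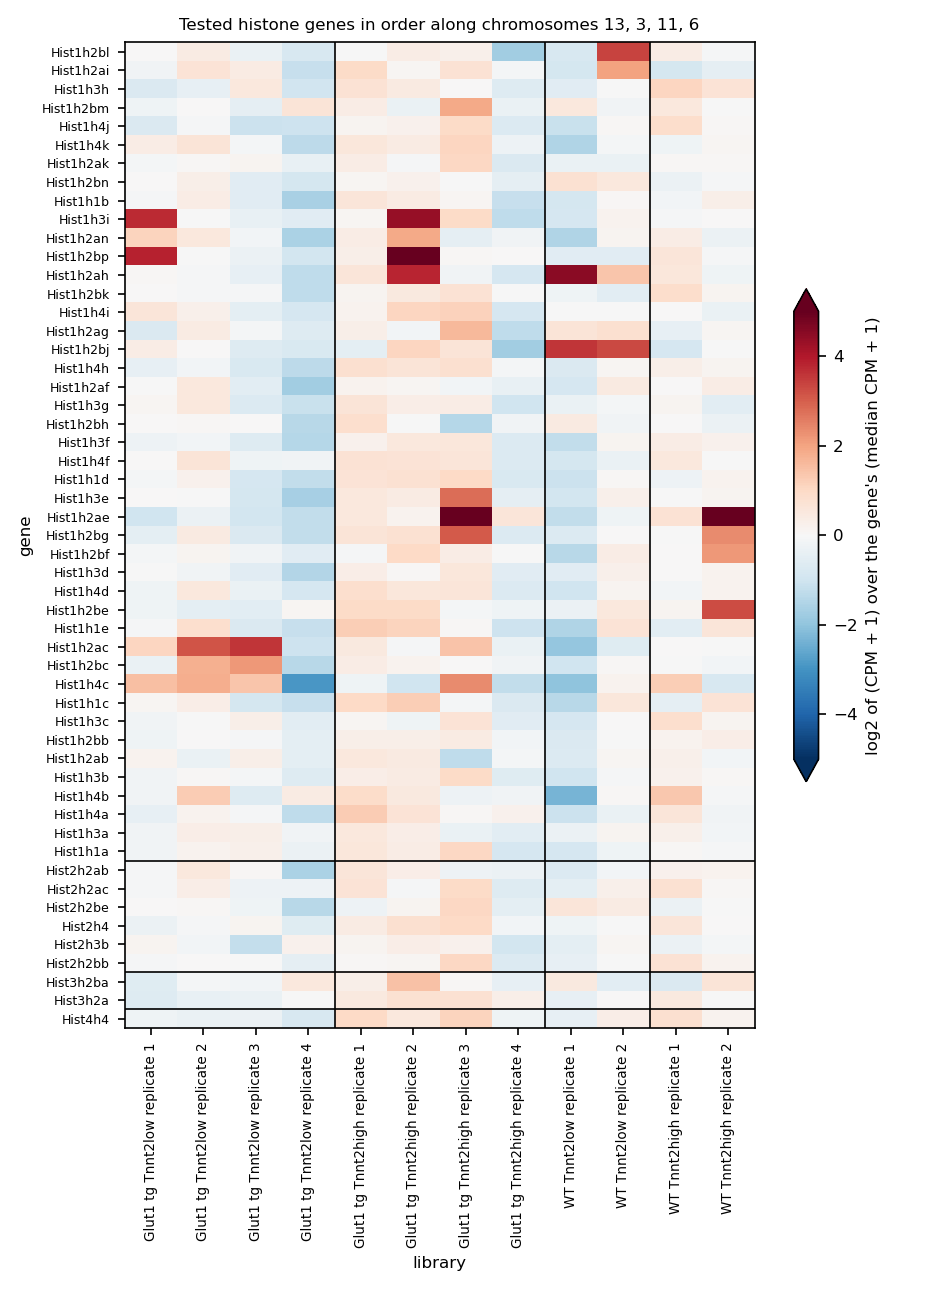
Log2 of each tested member's CPM plus 1 over its median CPM plus 1, with 12 libraries in columns and 53 members in order along chromosomes 13, 3, 11 and 6 in rows, and colours that end at -5 and 5. Dark red cells are single libraries, often in neighbouring genes such as Hist1h2ae with Hist1h2bg or Hist1h3i with Hist1h2bp, and Hist1h2bj is red in both WT Tnnt2low libraries.

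The octamer was in 4 of the 9 promoters of high H2A and H2B members and in 7 of the 16 promoters of the other tested H2A and H2B members. TATAAA was in 6 of 9 and 9 of 16, and CCAAT in all 25. No H1 gene was high in this sense. Hist1h1c had 401, 473, 204 and 169 CPM in Glut1 tg Tnnt2low, against 742, 874, 348 and 226 CPM in Glut1 tg Tnnt2high libraries. Hist1h1e ranged from 91.6 to 373 CPM, against 100.4 to 488 CPM. Without the length and GC offset, both were lower in Tnnt2low cells of every Glut1 tg heart, while the groups overlapped.

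Other members of high CPM for their type were not called. Hist2h2bb, an H2B gene with no shared word, averaged 47.9 ± 6.75 CPM in Glut1 tg Tnnt2low and 62.8 ± 32.8 CPM in Glut1 tg Tnnt2high libraries (SD, n = 4 each). Hist1h2ak averaged 30.6 ± 4.87 and 39.1 ± 19.8 CPM, Hist2h2ac 27.7 ± 6.07 and 37 ± 17.5 CPM, Hist1h3b 28.6 ± 5.84 and 43 ± 17.7 CPM, and Hist1h4d 59.6 ± 24.9 and 89 ± 33.7 CPM in the same Tnnt2low and Tnnt2high groups (SD, n = 4 each).

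Genes for the transcription and processing of histone mRNA were taken as a list. Changes and calls given for this list and for the gene lists after it are without the length and GC offset. Of 21 tested genes of this list, 2 rose in Glut1 tg Tnnt2low against Tnnt2high cells and none fell, with a median log2 fold change of 0.29, beside 8.42% of all tested genes that rose. The 2 were Pou2f1, the octamer-binding factor Oct-1 (0.87, adjusted p 0.0332, edgeR), and Cpsf2, a subunit of the cleavage complex (0.48, adjusted p 0.0298, edgeR). Slbp, the stem-loop binding protein, averaged 18.1 ± 6.46 and 19 ± 5.95 CPM in Glut1 tg Tnnt2low and Tnnt2high libraries (SD, n = 4 each), a log2 fold change of -0.07. Npat averaged 19.2 ± 4.56 and 15.2 ± 2.4 CPM in the same groups, at 0.33, and neither was called. None of the list was called in WT or between genotypes. Of all 12252 genes, edgeR called 0 in WT and, between genotypes, 1 in Tnnt2low and 0 in Tnnt2high cells.

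Among 22 histone chaperones and acetylation genes, Atrx, Ubn1 and Hira, which serve the replication-independent deposition of H3.3, rose by 0.54, 0.63 and 0.72 on the log2 scale. Asf1a, a chaperone of H3 and H4, fell by 1.03, and Rbbp4 and Npm1 fell by 0.5 and 0.47. These 3 of 22 in each direction stand beside 8.42% of all genes that rose and 8.33% that fell. They were called without the length and GC offset, under which calls over all genes fell to 440 lower and 250 higher. Of 11 histone genes outside the clusters, the H2A variant gene H2afj alone was called, at 23.7 ± 6.98 CPM in Glut1 tg Tnnt2low and 46.1 ± 4.34 CPM in Glut1 tg Tnnt2high libraries (SD, n = 4 each, log2 fold change -0.96, adjusted p 0.00904, edgeR). The fitted change was below 0 in 8 of the 11 in Glut1 tg, with a median of -0.21. In WT it was below 0 in 8 of the 11, with a median of -0.17. These values too are without the offset.

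Of 24 genes of DNA replication and S phase, 3 rose in Glut1 tg Tnnt2low cells and none fell, beside the same 8.42% and 8.33% of all genes, with a median log2 fold change of -0.12. They were Uhrf1 (0.83), Rrm2 (0.93) and Rrm1 (0.53), the last pair being subunits of ribonucleotide reductase. Of 10 G2 and M genes, 6 rose, with a median of 1.21, Mki67 by 1.94. Summed, the S-phase genes ranged from 755 to 1122 CPM in Glut1 tg Tnnt2low and from 728 to 997 CPM in Glut1 tg Tnnt2high libraries. The G2 and M genes ranged from 571 to 1769.6 CPM, against 340.1 to 486 CPM. In the same libraries, without the length and GC offset, the clustered histone genes had fitted changes mostly below 0, beside S-phase genes near 0 and G2 and M genes above 0. With the offset the histone changes were not mostly below 0. The S-phase and G2 and M values given here are all without it.

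Markers of other cell types also differed, again without the offset. Of 5 fibroblast genes, 4 fell in Glut1 tg Tnnt2low cells, and their sum ranged from 38.1 to 78.1 CPM, against 119 to 760.0 CPM in Glut1 tg Tnnt2high libraries, with 89.3 to 122 CPM in WT Tnnt2low and 81.7 to 400.3 CPM in WT Tnnt2high libraries. The 5 endothelial genes summed to 6.12 to 62.7 CPM, against 25.4 to 192 CPM, with none called. Of 4 smooth muscle and pericyte genes 1 fell, Pdgfrb, and sums over 4 leukocyte genes stayed at or under 6.46 CPM. Erythroid and epicardial genes had 1 tested member each, not called. Of 8 cardiomyocyte genes, Ryr2 rose while Myl2, Tnni3 and Tnnt2 fell. Reads outside exons per read counted on a gene were 0.962 ± 0.0758 in Glut1 tg Tnnt2low and 2.38 ± 0.169 in Glut1 tg Tnnt2high libraries (SD, n = 4 each), and 1.31 ± 0.258 and 1.67 ± 0.228 in the WT populations (SD, n = 2 each). The part of these differences in the histone levels was not tested.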

How the data were processed

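Libraries of sorted-cell RNA came from an Illumina mRNA kit and were sequenced as single-end 50 bp reads. The authors trimmed ends under Phred 20 after FastQC, mapped with HISAT2 to UCSC mm10 and counted with HTSeq over the union of exons. For tool versions and strand, settings were not given in the sources used here. Values as deposited are raw counts per gene, and 5 totals that name no gene were left out. One of these totals holds the reads with several alignments, 28.2% to 40.9% of records per library.

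The test was edgeR 4.0.16 under R 4.3.3 (filterByExpr on 4 groups, TMM scaling, quasi-likelihood test, all 12 libraries in 1 fit), with Benjamini-Hochberg adjustment over 12252 genes. DESeq2 1.42.0, no filter, a heart block, the compared libraries alone, a robust fit, a loess offset (span 0.3) for length and GC content, and each library left out were the alternatives. The offset had values for 11810 genes (96.4%), among them all 53 members tested. CPM are TMM-scaled. The code was tested on simulated data.

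Libraries pair by the heart number in the labels. Same-numbered libraries deviated together (r = 0.226, 0.131, 0.118 and 0.107 for Glut1 tg and 0.271 for WT), each best with its own number. With 2 WT libraries a group, deviations from the group mean mirror each other. Both WT numbers then must give the same r, so they are a single comparison.

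Members named were those called in any of 5 comparisons and the 3 of highest mean CPM in each type. Other members, such as Hist1h2ac, Hist1h2bg and Hist1h2bp, were chosen after their values were seen. The members and lists were chosen with earlier results of these data known.

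Shared words were searched in GENCODE vM21 transcripts only, so copies outside annotated genes were not counted. Figures were drawn with matplotlib.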

Additional observations from a re-analysis of the deposited data

Results flagged for a closer look

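Among the 2 Glut1 tg groups of 4, the named members and the sums by type gave 46 sets of values, in which 6 had 1 library far from the other 3. Chance flags about 1 in 20 sets that were not chosen by their values. The members here were named by calls or by mean CPM in these same data, and a single high library can raise both. The 6 flags can therefore not be set against that rate. In Glut1 tg Tnnt2high replicate 3, Hist1h2ae stood at 97.7 CPM with the next library at 2.61, Hist1h3e at 216 CPM with the next at 44.6, and Hist1h4c at 215 CPM with the next at 35.7. Hist1h3i stood apart in 2 libraries, at 131 CPM in Glut1 tg Tnnt2low replicate 1 with the next at 8.87, and at 202 CPM in Glut1 tg Tnnt2high replicate 2 with the next at 18.1. Hist2h2bb was low in Glut1 tg Tnnt2low replicate 4, at 37.9 CPM, below the other 3.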

How the results depend on the processing

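For Glut1 tg Tnnt2low against Tnnt2high, the 5 called members became 10 with no filter on low counts, 8 with the heart as a block, 3 in the robust fit and 0 with the offset for length and GC content, and 4 to 11 with single libraries left out. Over all genes, 1020 lower and 1032 higher calls became 1029 and 1073 with no filter, 1133 and 1204 with the block, 1028 and 1112 in the robust fit, and 440 and 250 with the offset. For WT, 0 became 1 with DESeq2, with no filter, with the block and with the compared libraries alone, and 0 to 1 with libraries left out, Hist1h2bj each time. For Tnnt2low cells, Glut1 tg against WT, 1 became 3 with no filter and 0 in the robust fit, and 0 to 1 with libraries left out. The interaction count of 0 became 2 with no filter and 0 to 1 with libraries left out. For Tnnt2high cells it was 0 in all alternatives run. The summed H2B ratio changed sign in WT, where it was 0.08, to -0.88 with only members sharing at most 50% of their words. Without members high in any library, a choice made after seeing the data, it was -0.43 in WT and 0.0199 in Glut1 tg, where it was -0.33. The WT H2A ratio moved to -1.12 with the members of few shared words, and the Glut1 tg H2B ratio to -0.19 with totals in place of TMM. The cause was not tested. The pairing block changed no call other than those given. Replicate numbers limit all WT comparisons to 2 libraries a group.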
